A study of Mus musculus with 281 samples.

Results

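The collagen-modifying enzymes described here were 10 genes chosen by name, *P4ha1*, *P4ha2*, *P4ha3*, *Plod1*, *Plod2*, *Plod3*, *Lox*, *Loxl1*, *Loxl2* and *Serpinh1*, out of 47752 genes in the deposited gene table. They were followed across single cells of the stria vascularis (SV), the epithelium of the cochlear lateral wall that produces endolymph, in mice with and without pendrin, the anion exchanger encoded by *Slc26a4*. The set was put together because *P4ha3* had one of the lowest values in pendrin-expressing cells of mutant mice, so the fall of *P4ha3* in those cells is a description and supports nothing by itself. Cells were picked one by one with a micropipette and profiled with Smart-Seq2, a full-length single-cell RNA-seq method, from 129S6 wild type (Slc26a4+/+, postnatal days P22 to P42), heterozygous (Slc26a4+/-, 40 cells, P26 to P33) and homozygous mutant mice (Slc26a4-/-, 69 cells, P24 to P44). The labels give the genotype of the whole animal, and not of the SV alone. All tissue was treated with collagenase for a short time before the cells were picked.

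Fibrillar and basement membrane collagens are modified while they fold in the endoplasmic reticulum and again outside the cell. Prolyl 4-hydroxylases, built from one of the α subunits encoded by *P4ha1*, *P4ha2* and *P4ha3* with the β subunit encoded by *P4hb*, hydroxylate proline and make the triple helix stable at body temperature. Lysyl hydroxylases (*Plod1*, *Plod2*, *Plod3*) hydroxylate lysine, HSP47 (*Serpinh1*) is the chaperone of folded procollagen, and the copper enzymes lysyl oxidase and its relatives (*Lox*, *Loxl1*, *Loxl2*) cross-link collagen and elastin outside the cell. In the SV, intermediate cells (IMCs) are melanocyte-like cells that hold the potassium channel Kcnj10, marginal cells (MCs) face the endolymph, and spindle cells (SCs) and root cells (RCs) are the pendrin cells at the edges of the SV.

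The labels do not say which mouse a cell came from, and each genotype was taken as 1 sample. None of the differences between genotypes or cell types has a test for this reason. Levels are means over cells of CPM, the counts of a gene after the total of every cell is scaled to the same size. A cell carried between 1848 and 7932729 estimated counts (median 1312950), and 20 cells, all Slc26a4+/+, had fewer than 100000. Intervals for shares of cells are exact binomial intervals at 95% and cover counting error only. Clustering, from which the 10 genes were left out, gave 85 IMC-like, 33 SC-like, 37 RC-like and 21 MC-like cells, and left the others unnamed (80 Slc26a4+/+, 10 Slc26a4+/- and 15 Slc26a4-/-). The Slc26a4+/+ cells with a name were 38 IMC-like, 23 SC-like, 17 RC-like and 14 MC-like. The summed level of the SC markers was between 11540.5 and 120743 CPM in SC-like Slc26a4+/+ cells, against 6.78 to 1922 CPM in IMC-like ones. The cells fell into 4 sequencing runs, told by the date that each profile carries. Slc26a4+/+ cells came from all 4 runs, Slc26a4+/- cells from run 4, and Slc26a4-/- cells from run 2 (46 cells), run 4 (22 cells) and run 1 (1 cell). *Slc26a4* RNA itself did not separate the genotypes, with a mean of 944 CPM in pendrin cells labelled Slc26a4+/+ and 793 CPM in those labelled Slc26a4-/-. A count over the whole transcript cannot tell the mutated part, so it checks nothing, and the groups are named as the labels name them.

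Of the 10 genes, 3 have coding exons that are used in some transcripts and replaced or skipped in others, and the results on isoforms below turn on them. They are printed here as GENCODE M21 gives them on GRCm38 (mm10), all on the + strand. *Plod2* (chr9:92542223-92608428) has a 63-base coding exon at chr9:92601985-92602047, exon 14 of 20 in the transcript that holds it, which the short form skips. With it the enzyme is the long form, which is known for hydroxylating lysines in the telopeptides of collagen.
Plod2 extra exon: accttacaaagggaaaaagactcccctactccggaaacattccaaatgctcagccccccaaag
*P4ha1* (chr10:59323296-59373304) has a pair of 71-base exons of which each transcript uses one. Of their 71 bases, 42 are identical and 29, in capitals, differ. The first (chr10:59354340-59354410) is in 1 coding transcript and the second (chr10:59355350-59355420) in 2.
P4ha1 first exon: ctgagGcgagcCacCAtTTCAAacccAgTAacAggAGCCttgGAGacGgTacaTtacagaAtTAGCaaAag
P4ha1 second exon: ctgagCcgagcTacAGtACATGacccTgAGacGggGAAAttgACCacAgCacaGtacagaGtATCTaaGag
*P4ha2* (chr11:54100095-54131665) has a like pair of unequal length. The 60-base exon (chr11:54126238-54126297) lies before the 66-base exon (chr11:54126346-54126411), and each is exon 13 of 16 in its transcript.
P4ha2 60-base exon: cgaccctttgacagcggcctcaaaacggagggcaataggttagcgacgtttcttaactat
P4ha2 66-base exon: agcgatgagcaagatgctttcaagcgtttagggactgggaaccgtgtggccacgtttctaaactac

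The first question was in which SV cells of Slc26a4+/+ mice each enzyme was transcribed. The α subunits of prolyl 4-hydroxylase were divided among the cell types. *P4ha3* (chr7:100285520-100319699, + strand) was high in SC-like cells, with a mean of 227.01 CPM, against 1.27 CPM in RC-like, 0.802 CPM in IMC-like and 0.172 CPM in MC-like cells. *P4ha2* went the other way, with 27.2 CPM in IMC-like cells and between 0.223 and 0.667 CPM in the other types. *P4ha1* was spread over IMC-like (36.9 CPM), SC-like (30.1 CPM), MC-like (23.3 CPM) and RC-like cells (6.998 CPM). *P4hb*, the β subunit that all 3 share, was present in every type, between 569 and 836 CPM.

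Within the SC-like cells *P4ha3* was uneven. Of 23 Slc26a4+/+ cells, 11 had at least 10 counts (47.8%, interval 26.8 to 69.4), 9 had none, and the lowest, median and highest values were 0, 2.98 and 2049 CPM. The highest single cell carried 2049 CPM and the next 1145 CPM, while 12 cells lay at 2.98 CPM or below. Without the highest cell in each type, SC-like cells were still above the next type by 6.23 on the log2 scale, against 6.65 with it (log2 of mean CPM + 1). When each cell was typed by its highest marker score instead of its cluster, which also types the unnamed cells, the difference was 2.30. At least 10 counts were found in 1 of 17 RC-like cells, and in 0 of 14 MC-like and 0 of 38 IMC-like cells. When each cell was thinned to 100000 counts, a count remained in 12 of 21 SC-like, 3 of 38 IMC-like, 2 of 16 RC-like and 0 of 14 MC-like cells. The transcripts differed as well. In SC-like cells the coding transcript of 2361 bases held 90.7% of the counts of the gene, while of the few counts in the IMC-like and the RC-like cells 82.96% and 92.6% were given to the coding transcript of 1884 bases.

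The lysyl hydroxylases overlapped more. *Plod2* was present in SC-like (77.3 CPM), RC-like (80.6 CPM) and MC-like cells (102.8 CPM) and low in IMC-like cells (10.2 CPM). It had at least 10 counts in 12 of 23, 10 of 17, 6 of 14 and 4 of 38 cells of these types. The means of the 3 types that carried it differed by less than the range of single cells, which ran from 0 to 363, 516 and 467 CPM. *Plod1* (chr4:147909753-147936767, - strand) was highest in IMC-like cells, at 162.9 CPM (26 of 38 cells with at least 10 counts), against 64.9 CPM in RC-like, 22.95 CPM in MC-like and 17.6 CPM in SC-like cells. *Plod3*, which also carries the glycosyltransferase activity that glucosylates hydroxylysine, was found in every type, from 29.4 CPM in MC-like to 120.7 CPM in SC-like cells. *Plod3* overlaps *Znhit1* on the opposite strand, and since the libraries keep no strand, reads of the shared stretch cannot be told apart.

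The extracellular oxidases had little overlap. *Lox* was found in RC-like cells alone among the 4 types at more than traces, with a mean of 61.98 CPM that came from 4 of 17 cells (highest 564 CPM, median 0). None of the 23 SC-like cells had a count, which allows a share of cells with a count of up to 13.04% by the limit of 3 in 23. *Loxl1* (chr9:58287738-58313186, - strand) averaged 60.9 CPM in SC-like cells, where 8 of 23 cells had at least 10 counts, against 13.1 CPM in MC-like cells, which came from 1 of 14 cells, and 3.20 CPM in RC-like cells, which came from 1 of 17. *Loxl2* averaged 37.6 CPM in IMC-like cells, with at least 10 counts in 14 of 38 cells, and at most 0.499 CPM elsewhere. Its values are uncertain, because *Gm21451*, annotated as a pseudogene on the same chromosome (chr14:69390854-69480287), was given 44.3 CPM in the same IMC-like cells. Of the 14 IMC-like cells with at least 10 *Loxl2* counts, 10 also had 10 of *Gm21451*.

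*Serpinh1* (chr7:99345376-99353239, - strand) was the most widespread member. Its mean was 178.4 CPM in IMC-like cells, 49.9 CPM in SC-like, 42.6 CPM in MC-like and 12.8 CPM in RC-like cells. At least 10 counts were present in 35 of 38 IMC-like cells (92.1%, interval 78.6 to 98.3) and in 15 of 23 SC-like, 6 of 14 MC-like and 4 of 17 RC-like cells. On TPM, which is per length, the order was the same, with 135.8 TPM in IMC-like and 41.3 TPM in SC-like cells. Between genes on this per-length scale, *P4ha3* in SC-like cells (142.2 TPM) was of the level of *Serpinh1* in IMC-like cells.

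Counted together, 7 of the 10 genes were at least 2-fold higher in one named cell type than in the next, 4 of them in IMC-like cells (*P4ha2*, *Plod1*, *Loxl2*, *Serpinh1*), 2 in SC-like cells (*P4ha3*, *Loxl1*) and 1 in RC-like cells (*Lox*). Of all 11384 genes with a mean of at least 10 CPM in a type, 34.3% were so called, with shares of 8.02% for the IMC-like, 8.48% for the SC-like, 11.6% for the RC-like and 6.16% for the MC-like cells, the last with no member. *P4ha1*, *Plod2* and *Plod3* did not pass 2-fold. No Slc26a4+/+ cell of a named type had at least 10 counts of all 10 members. The median was 3 members with at least 10 counts in an IMC-like cell (range 1 to 5) and 3 in an SC-like cell (range 0 to 7), and 2 in RC-like and MC-like cells. Among the 11 SC-like cells with at least 10 *P4ha3* counts, 9 also had *Serpinh1*, 6 *Plod2*, 6 *Plod3* and 6 *Loxl1*, and none had *Lox* or *Loxl2*.

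**Figure D1:**
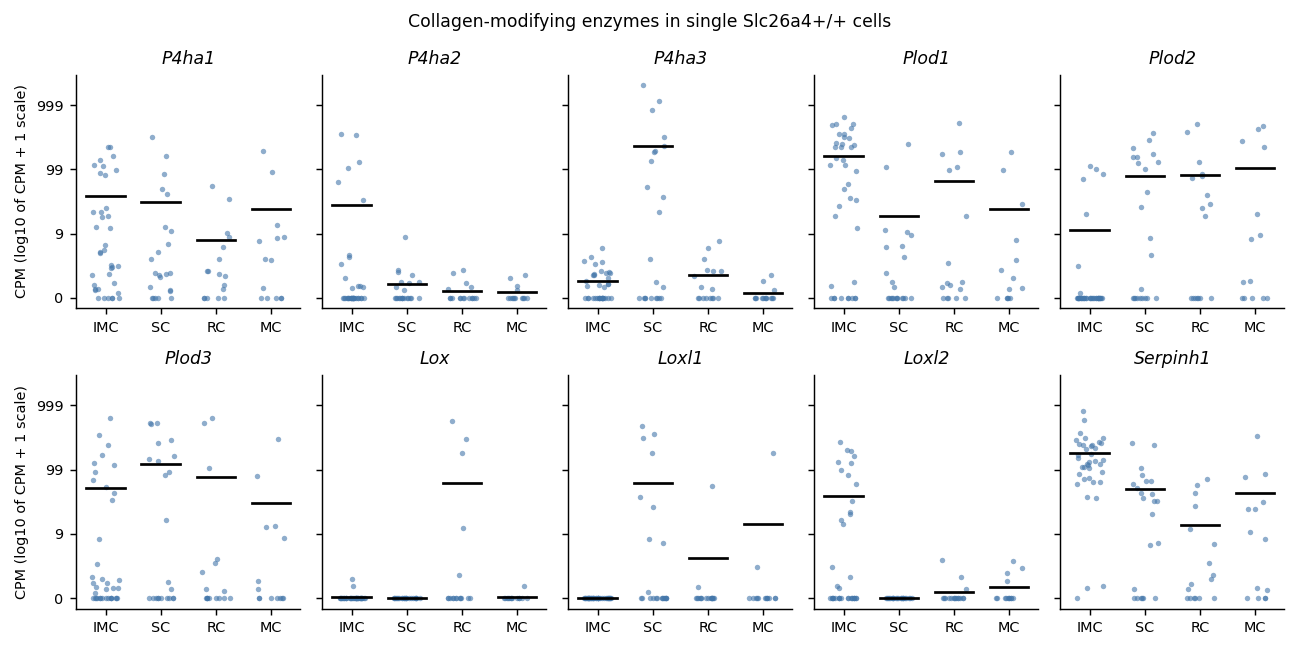
CPM of each enzyme gene (log10 of CPM + 1 scale) in single Slc26a4+/+ cells of the 4 named types, with each point a cell and the black line the mean over cells. *P4ha3* and *Loxl1* points lie high in SC-like cells, *Lox* in 4 RC-like cells, and *P4ha2*, *Loxl2*, *Plod1* and *Serpinh1* in IMC-like cells, and in most panels many cells lie at 0.

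Genes whose pattern over all cells of the series was most like that of a member were named by Pearson's r of log2 (CPM + 1) among 10161 genes (10162 for *Lox*) with a mean of at least 10 CPM. Cells share depth and run, so r is a description. For *P4ha3* they were *Cntn1*, a neural cell adhesion molecule (r = 0.49), *Slc30a2*, a zinc transporter (r = 0.48), and *Sbspon*, which is among the leading genes of the SC-like cluster (r = 0.43). *Serpinh1* was most like *Mpzl1* (r = 0.58), *Plod2* most like *F11r*, a tight junction adhesion molecule (r = 0.55), *Lox* most like *Folh1* (r = 0.53), and *Plod1* most like *Mertk* (r = 0.48). *Loxl2* was most like its near copy *Gm21451* (r = 0.58), and *Loxl1* most like *Prrg4* (r = 0.47). *P4ha1*, *P4ha2* and *Plod3* had no gene above 0.32, which was reached by *Msl1* for *P4ha1* and *Zbtb26* for *Plod3*, with *Fam49a* at 0.31 for *P4ha2*.

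Isoforms were compared next, from the estimated counts of the transcripts with either exon choice. The extra exon of *Plod2* was nearly absent from SC-like, RC-like and MC-like cells. In Slc26a4+/+ cells of these 3 types, transcripts with the exon held 3.28% of the counts of both forms (196.6 with and 5801 without it). Of 28 cells with at least 10 such counts, 27 had the exon in 10% or less, and the other, an MC-like cell, in 15.1%. IMC-like cells were different in the few that could be read. In 4 Slc26a4+/+ IMC-like cells the share with the exon was 49.2%, 76.7%, 90.7% and 100%. Over the counts of all 38 IMC-like Slc26a4+/+ cells it was 83.5%. In the unnamed clusters 1 Slc26a4+/+ cell had 2375 counts, of which 100% were of the long form. Among mutant cells, 2 RC-like Slc26a4-/- cells of run 4 at P29 had 57.8% and 60.8%, and the other 6 RC-like Slc26a4-/- cells had 3.15% or less. In 1 MC-like Slc26a4+/- cell the share was 78.9%.

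**Figure D2:**
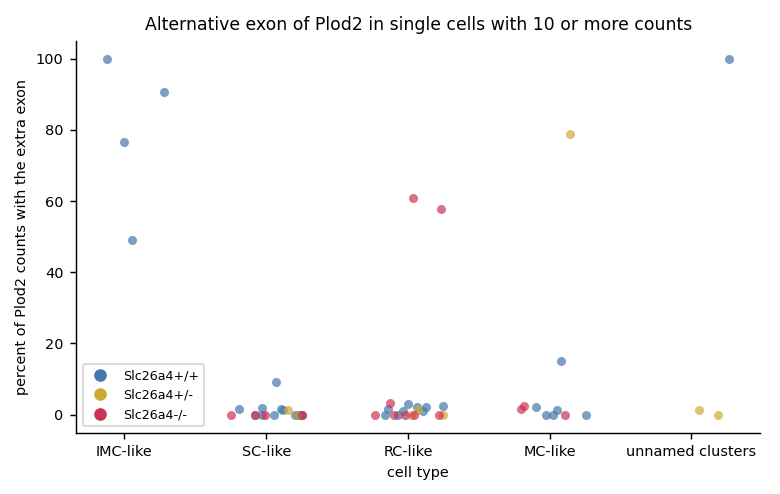
Percent of the *Plod2* counts that were given to the transcript with the extra 63-base exon, in single cells with at least 10 counts, by cell type (horizontal axis) and genotype (colour), with each point a cell. SC-like, RC-like and MC-like cells lie near 0 apart from 2 RC-like Slc26a4-/- cells and 1 MC-like Slc26a4+/- cell above 50, while the 4 IMC-like cells lie at 49.2 or above.

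For *P4ha1* the choice of exon differed from cell to cell. In IMC-like Slc26a4+/+ cells the first exon took 24.1% of all counts, but of 15 cells with at least 10 counts 6 had 90% or more of it, 5 had 10% or less and 4 lay between. The median of these cells' shares was 48.7%. The summed share of the first exon was higher in the other types, at 71.4% in SC-like (4 cells with at least 10 counts), 80.4% in RC-like (3 cells) and 75.5% in MC-like Slc26a4+/+ cells (5 cells). None of these 12 cells had 10% or less of it, 5 had 90% or more and 7 lay between. The summed share was 62.5% in IMC-like Slc26a4-/- cells (15 cells with at least 10 counts) and 30.2% in Slc26a4+/- cells (10 cells). The medians over these cells were 62.4% and 9.47%. Single Slc26a4+/+ cells ran from 0.48% to 100%, so their span cannot tell whether the genotypes differ, and the difference was not tested. *P4ha2* showed cells on one side or the other. Of 12 IMC-like cells of all genotypes with at least 10 counts, 4 had 90% or more with the 66-base exon, 7 had 10% or less and 1 lay between. The cells with 90% or more were 1 of 5 Slc26a4+/+, 0 of 2 Slc26a4+/- and 3 of 5 Slc26a4-/- cells. The summed shares of these genotypes were 6.79%, 0% and 87.2%. They rest on few cells, and the difference was not tested. The reads carry no molecular identifiers, so the number of molecules behind a cell's share is not known.

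The second question was what differed in pendrin cells of Slc26a4-/- mice. Over SC-like and RC-like cells together (22 Slc26a4-/- and 40 Slc26a4+/+ cells), *P4ha3* was at 0.0519 CPM in Slc26a4-/- and 131.1 CPM in Slc26a4+/+ cells, a log2 ratio of -6.97, the value for which it was chosen. SC-like cells were 8 of the 22 and 23 of the 40, so pooled values also depend on the mix of the 2 types. Most other enzymes had a higher mean in the mutant cells. *P4ha1* was at 84.2 CPM against 20.3 CPM, *Loxl1* at 73.6 against 36.4 CPM, *Plod2* at 157.2 against 78.7 CPM, *Plod1* at 75.5 against 37.7 CPM, *Serpinh1* at 68.3 against 34.2 CPM and *Plod3* at 184.4 against 101.8 CPM, while *Lox* was at 16.01 against 26.3 CPM. Of the 8 members with at least 10 CPM in either genotype, 1 was at least 2-fold lower and 1, *P4ha1*, at least 2-fold higher. Over all 10414 such genes the shares were 22.5% lower and 15.1% higher. The median log2 ratio of the 8 members was 0.98 and that of all genes -0.14. *Loxl1*, *Plod2*, *Plod1* and *Serpinh1* lay just under 2-fold, with log2 ratios of 0.998, 0.99, 0.98 and 0.98. The value of *P4ha1* turned with the run, at -1.31 within run 4 and -0.11 without run 2, against 2.00 over all runs.

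**Figure D3:**
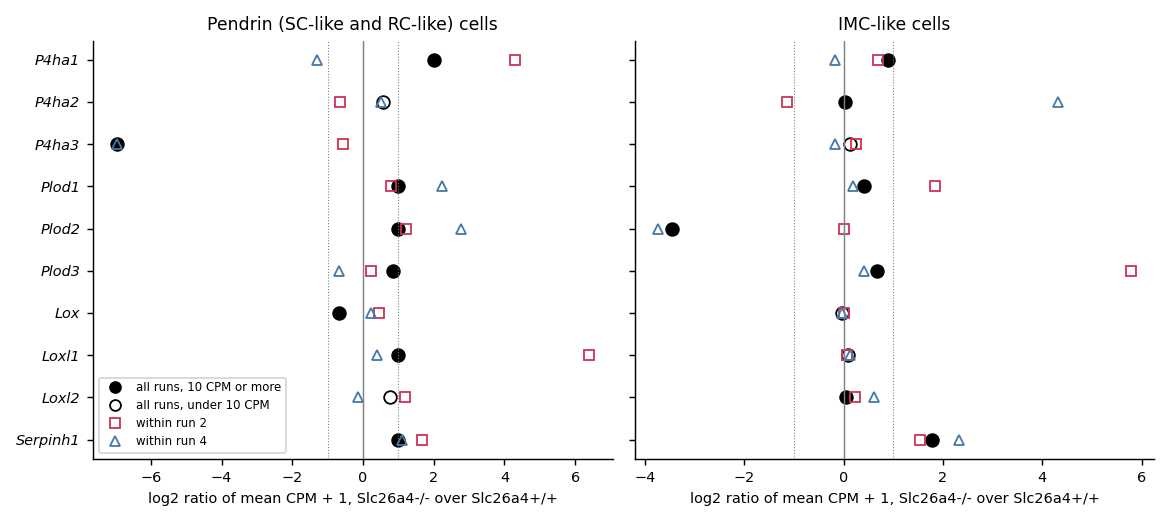
Log2 ratio of mean CPM + 1, Slc26a4-/- over Slc26a4+/+, of each enzyme gene in pendrin cells (left) and IMC-like cells (right), for all runs (circles, open where both genotypes were under 10 CPM) and within run 2 (squares) and run 4 (triangles), with dotted lines at 2-fold. *P4ha3* is at -6.97 in pendrin cells but at -0.55 within run 2, and *Serpinh1* in IMC-like cells is right of the 2-fold line within both runs.

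The low *P4ha3* level rested on SC-like cells. In the 8 SC-like Slc26a4-/- cells, 0 of 4022237 counts were of *P4ha3*, and all 8 values were 0. By the limit of 3 in 8, this allows a share of cells with a count of up to 37.5%. Pooled over cells, the Slc26a4+/+ level of 210.9 CPM was 282.8-fold the limit that 3 counts over the 8 cells would set. One Slc26a4+/+ cell gave 3509 of the 8249 counts, and without it the level was 126.8 CPM, or 169.9-fold that limit. Both ratios cover counting error only. They leave out the uneven level among SC-like Slc26a4+/+ cells, so they set no bound on the difference between genotypes. Of the 2 SC-like Slc26a4+/- cells, one was at 605 CPM and the other at 0. In RC-like cells, where the gene was low from the start, 2 of 14 Slc26a4-/- and 9 of 17 Slc26a4+/+ cells had a count, with highest values of 0.715 and 6.60 CPM.

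Run and genotype could not be told apart for *P4ha3* in SC-like cells. All 8 SC-like Slc26a4-/- cells came from run 2, at P24 (3 cells) and P29 (5 cells). The only SC-like Slc26a4+/+ cells of run 2 were 2 cells at P40 and P42, and both were at 0 as well. In the other runs, SC-like Slc26a4+/+ cells averaged 285.1 CPM (run 1, 3 cells), 213.1 CPM (run 3, 15 cells) and 390 CPM (run 4, 3 cells), and in each of these runs there were also cells with fewer than 10 counts. The run 1 mean came from 1 cell, at 855 CPM and with 24550 counts in all. The median was 36.3 CPM in run 3 (highest 2049 CPM) and 20.5 CPM in run 4 (highest 1145 CPM). Run 4 held 7 Slc26a4-/- pendrin cells, all of them RC-like, so its log2 ratio of -6.95 set RC-like cells against a mix of both types. The SC-like Slc26a4-/- cells also stood apart in other ways. They had a median of 524052 counts against 1820560 in Slc26a4+/+ cells, a summed SC marker level between 4297 and 24717 CPM against 11540.5 to 120743 CPM, and 35% of 9992 genes at least 2-fold lower. Of the 9 SC markers, *Wfdc18* (686 against 20200 CPM), *Anxa1* (1204 against 5714 CPM) and *Cldn3* (107.5 against 512.4 CPM) were lower. Lower means were also found for *Krt8* (1876 against 4385 CPM), *Krt18* (1633 against 2923 CPM), *Anxa5* (5782 against 9706 CPM) and *Krt19* (0 against 8.77 CPM). *Cldn7* (1143 against 1378 CPM) was close, and *Dpp10* (72.4 against 19.2 CPM) was higher. The 10 MC markers summed to a median of 9545 CPM in them (range 3194 to 18382) against 3682 CPM in SC-like Slc26a4+/+ cells (range 847 to 17942). *Slc26a4* was at 102.5 CPM in them against 912 CPM, while in RC-like cells it was at 1188 against 989 CPM. The part of these differences in the *P4ha3* result was not tested.

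**Figure D4:**
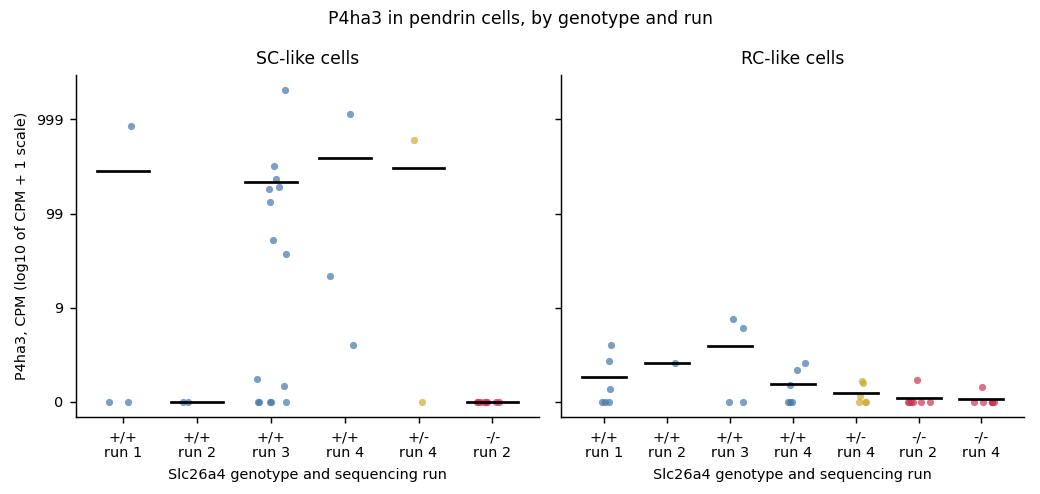
*P4ha3* (CPM, log10 of CPM + 1 scale) in single SC-like and RC-like cells by genotype and sequencing run, with each point a cell and the black line the mean over cells. The 8 SC-like Slc26a4-/- cells and the 2 SC-like Slc26a4+/+ cells of run 2 all lie at 0, and cells of runs 1, 3 and 4 reach between 855 and 2049 CPM.

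No other enzyme had a lower mean in SC-like Slc26a4-/- than in SC-like Slc26a4+/+ cells. Run 2 held all 8 of these Slc26a4-/- cells and 2 of the Slc26a4+/+ cells. Run and genotype could therefore not be told apart for these enzymes either. *Plod3* averaged 298.4 CPM in the 8 Slc26a4-/- cells, of which 5 had at least 10 counts, against 120.7 CPM in 23 Slc26a4+/+ cells, of which 9 had. Of the Slc26a4+/+ cells, 1 at 541 CPM had 1848 counts in all. *Plod2* averaged 149.1 against 77.3 CPM, *Loxl1* 86.9 against 60.9 CPM, and *Serpinh1* 69.3 against 49.9 CPM. *Plod1* averaged 43.3 against 17.6 CPM and was, with *Plod3*, at least 2-fold higher, 2 of 7 members, as were 22.2% of genes. The single values of each gene overlapped between the genotypes. In RC-like cells *Loxl1* was at 66.05 CPM in Slc26a4-/- cells, of which 7 of 14 had at least 10 counts, against 3.20 CPM in Slc26a4+/+ cells, of which 1 of 17 had. It was 78.5 CPM in run 2 and 53.6 CPM in run 4, and no Slc26a4+/+ run mean was above 8.98 CPM. Run 2 held only 1 RC-like Slc26a4+/+ cell, at 0, and run 4 held 6, with a mean of 0.0822 CPM. The 8.98 CPM, of run 1, came from 1 of 6 cells. *Lox* in RC-like cells was at 25.2 CPM (4 of 14 cells with at least 10 counts) against 61.98 CPM (4 of 17 cells), and the 4 Slc26a4-/- cells with *Lox* all had *Loxl1* too, while none of the 4 Slc26a4+/+ cells did. *Serpinh1* in RC-like cells was at 67.7 against 12.8 CPM, with 9 of 14 and 4 of 17 cells at 10 counts or more. The value of *P4ha1* in RC-like Slc26a4-/- cells, 112.5 CPM, came from 3 of 14 cells, of which the highest had 1187 CPM. Of all 10147 genes with at least 10 CPM in RC-like cells, 21.8% were at least 2-fold higher and 28.2% lower, and 3 of 7 members were higher and 1, *Lox*, lower.

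In IMC-like cells *Serpinh1* was the member that was at least 2-fold higher in Slc26a4-/- mice. In 38 Slc26a4+/+ cells its lowest, median and highest values were 0, 134.2 and 812 CPM (mean 178.4 CPM). In 20 Slc26a4+/- cells they were 76.4, 299 and 647 CPM (mean 316 CPM), and in 27 Slc26a4-/- cells 1.73, 654 and 1366 CPM (mean 617 CPM). The genotypes overlapped, but 25 of 27 Slc26a4-/- and 18 of 20 Slc26a4+/- cells lay above the Slc26a4+/+ median, and 7 Slc26a4-/- cells lay above the highest Slc26a4+/+ cell. The log2 ratio was 1.78 for Slc26a4-/- and 0.82 for Slc26a4+/- cells. Over all 9466 genes, 13% were at least 2-fold higher in Slc26a4-/- IMC-like cells.

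The order of *Serpinh1* held within runs. In run 2 it averaged 181.7 CPM in 5 Slc26a4+/+ and 526 CPM in 16 Slc26a4-/- cells, and in run 4 it averaged 150 CPM in 7 Slc26a4+/+, 316 CPM in 20 Slc26a4+/- and 749 CPM in 11 Slc26a4-/- cells. Cells that share run, age and the number at the start of the profile's name form a set. Means of 15 Slc26a4+/+ sets ran from 31.8 to 417 CPM, those of 4 Slc26a4+/- sets from 220.7 to 428 CPM and those of 8 Slc26a4-/- sets from 314.2 to 785 CPM, so that the sets overlapped at their ends. In the other cell types the means were higher in Slc26a4-/- cells too, at 67.7 against 12.8 CPM in RC-like, 142.8 against 42.6 CPM in MC-like (5 and 14 cells) and 69.3 against 49.9 CPM in SC-like cells.

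**Figure D5:**
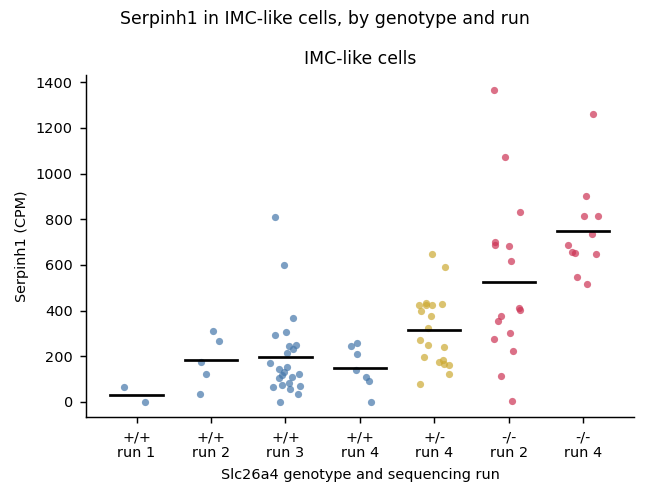
*Serpinh1* (CPM) in single IMC-like cells by genotype and sequencing run, with each point a cell and the black line the mean over cells. Within run 4 the means are 150 CPM in Slc26a4+/+, 316 CPM in Slc26a4+/- and 749 CPM in Slc26a4-/- cells, and within run 2 they are 181.7 and 526 CPM.

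Genes of other cells were checked beside this result. Of the 6 pericyte markers, the summed level was between 0 and 2908 CPM in Slc26a4-/- IMC-like cells (median 96.9 CPM) and between 0 and 633 CPM in Slc26a4+/+ cells (median 11.7 CPM), and nearly all of it was *Cspg4* (463 and 70.4 CPM), while *Pdgfrb* and *Kcnj8* had no count in the Slc26a4-/- cells. In cells with less than 100 CPM of these markers, *Serpinh1* averaged 494 CPM in 14 Slc26a4-/- and 161.4 CPM in 29 Slc26a4+/+ cells. Of the 8 fibrocyte markers, *Vim* (326.7 against 100.9 CPM) and *Otos* (27.7 against 19.7 CPM) had a higher mean in Slc26a4-/- cells and *Lum* was close (2.42 against 2.37 CPM). The other 5 had a lower one, namely *Coch* (10.2 against 35.7 CPM), *Car3* (18.2 against 34.8 CPM), *Slc4a11* (3.23 against 16.9 CPM), *Pdgfra* (0.151 against 2.49 CPM) and *Dcn* (0.128 against 1.82 CPM). Their summed level ran from 4.89 to 1026 CPM in Slc26a4-/- (median 318.8 CPM) and from 0.701 to 1024 CPM in Slc26a4+/+ cells (median 165.02 CPM). The 8 osteoblast markers summed to at most 29.4 CPM in any Slc26a4-/- cell. The summed IMC markers were higher as well, with medians of 74441 and 46317 CPM. The part of these genes in the *Serpinh1* result was not tested. The median depth was 1881680 counts in Slc26a4-/- and 1544840 in Slc26a4+/+ IMC-like cells.

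Over all runs, the other enzymes of IMC-like cells, apart from *Plod2*, differed less. Of the 7 with at least 10 CPM, 1 was at least 2-fold higher (*Serpinh1*) and 1 lower, *Plod2*, against 17.4% of all genes lower. *Plod2* was at 10.2 CPM in Slc26a4+/+ cells, where 4 of 38 cells had at least 10 counts, and at 0.0163 CPM in Slc26a4-/- cells, where 0 of 27 had. It passed 10 CPM through the Slc26a4+/+ cells alone, and in TPM, without run 3, without run 4, without the highest cell or over set means it was under 10 in both genotypes and no member was called lower. Within run 2 no IMC-like cell of either genotype had a count of it. *Plod1* (217.9 against 162.9 CPM), *Plod3* (80.7 against 50.7 CPM), *P4ha1* (69.7 against 36.9 CPM), *P4ha2* (27.6 against 27.2 CPM) and *Loxl2* (38.7 against 37.6 CPM) stayed within 2-fold over all runs. Single runs differed from this. Within run 2, 3 members were at least 2-fold higher and 1 lower, and within run 4, 2 were higher and 1 lower. *P4ha2* was at 30.4 against 68.7 CPM in run 2 and at 23.5 against 0.223 CPM in run 4. *Plod3* was at 65.8 against 0.215 CPM in run 2, where the Slc26a4+/+ cells were 5. In Slc26a4+/- IMC-like cells, *P4ha1* was at 96.1 CPM, a log2 ratio of 1.36, where 11.5% of genes were at least 2-fold higher, and *Plod2* was at 0.0138 CPM, where 18.3% were at least 2-fold lower. Within run 4 the ratio of *P4ha1* was 0.48. In Slc26a4+/- pendrin cells (8 cells), *Plod1* was at 5.01 CPM, a log2 ratio of -2.69, and was the 1 of 8 members at least 2-fold lower, where 28% of genes were lower and 19.1% higher, and *P4ha3* at 75.8 CPM, with at least 10 counts in 1 SC-like cell alone. Slc26a4-/- and Slc26a4+/- cells were compared with the same Slc26a4+/+ cells.

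Other genes of collagen synthesis were followed through a list of 44 symbols, of which 38 were in the table. In pendrin cells 29 had at least 10 CPM, and 4 were at least 2-fold lower and 6 higher in Slc26a4-/- cells, with a median log2 ratio of 0.31 against -0.14 for all genes, of which 22.5% were lower and 15.1% higher. The lowest were *Pcolce2*, an enhancer of procollagen C-proteinase (0.796 against 15.3 CPM), *Adamts2*, the procollagen N-proteinase (57.1 against 186.4 CPM), and *Ctage5*, which acts in the export of large cargo from the endoplasmic reticulum (60.1 against 166.05 CPM). The highest were *Loxl3*, a lysyl oxidase relative (16.5 against 2.08 CPM), *P4htm*, a transmembrane prolyl hydroxylase (111.4 against 25.8 CPM), and *P3h3*, of the prolyl 3-hydroxylase family (16.9 against 3.78 CPM). *Loxl3* and *P3h3* differed in opposite directions in the 2 types pooled here. *Loxl3* was at 43.8 against 0.0176 CPM in SC-like cells, from 1 of 8 Slc26a4-/- cells, and at 0.938 against 4.86 CPM in RC-like cells. *P3h3* was at 45.2 against 0.127 CPM in SC-like cells, from 2 of 8 Slc26a4-/- cells, and at 0.803 against 8.73 CPM in RC-like cells. *P4htm* was higher in both types. *P4hb* was at 1167 against 727 CPM. In IMC-like cells 6 of 29 were at least 2-fold lower and 6 higher, with a median of -0.02 against -0.11 for all genes, of which 17.4% were lower and 13% higher. *Loxl3* was again higher there (28.3 against 0.418 CPM), while *P4htm* (6.37 against 34.4 CPM) and *P3h3* (5.65 against 35.6 CPM) were lower.

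The substrates were followed through 25 collagen chain genes. Of these, 15 had at least 10 CPM in a named type of Slc26a4+/+ cells, and 8 were highest in RC-like cells, 3 in MC-like, 2 in SC-like and 2 in IMC-like cells, where the shares of all 11384 genes were 29.1%, 19.8%, 26.7% and 24.4%. In IMC-like cells the leading chains were *Col9a1* (51.3 CPM) and *Col4a4* (22.8 CPM), against 259.3 CPM of *Col9a1* and 432 CPM of *Col9a3* in RC-like cells. In Slc26a4-/- IMC-like cells no chain reached 10 CPM, and *Col9a1* was at 0.209 CPM. The 5 chains compared there passed 10 CPM through Slc26a4+/+ cells alone, so the comparison favoured a lower value. All 5 were at least 2-fold lower (median log2 ratio -1.64), against 17.4% of all genes. In Slc26a4+/- IMC-like cells 3 of 5 were lower (median -2.86), against 18.3% of all genes. In pendrin cells 4 of 13 chains were at least 2-fold lower and 6 higher, against 22.5% and 15.1% of all genes. *Col5a1*, a minor chain of fibrils that was named after its values were seen, was highest in SC-like Slc26a4+/+ cells (44.7 CPM). Its mean in pendrin cells was 25.8 CPM in Slc26a4+/+ mice and 0 in Slc26a4-/- mice. It thus passed 10 CPM through Slc26a4+/+ cells alone, and the number of cells that carried it is not given here. All SC-like Slc26a4-/- cells came from run 2 and had a lower median depth. Run and genotype could therefore not be told apart for *Col5a1* either.

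Several prolyl and lysyl hydroxylases are known targets of hypoxia-inducible factors, and a list of 18 such targets was set beside them. In pendrin cells 13 had at least 10 CPM, of which 4 were at least 2-fold lower and 2 higher in Slc26a4-/- cells (median log2 ratio -0.08), against 22.5% and 15.1% of all genes. In IMC-like cells 3 of 13 were lower and 0 higher (median -0.64), against 17.4% and 13% of all genes. The leading targets in Slc26a4+/+ IMC-like cells were the glycolytic genes *Aldoa* (4198 CPM) and *Eno1* (1004 CPM), at 2688 and 621 CPM in Slc26a4-/- cells.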

How the data were processed

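The authors pseudo-aligned the reads of each cell with kallisto (version and annotation release not given in the sources used here) to the mm10/GRCm38 mouse transcriptome and deposited estimated counts and TPM per transcript and, with their own script, an expected (estimated) count per gene. The table's counts were whole numbers. CPM scales a cell's counts to a common total, and 17 columns of the table that match no sample were not used. Cells were clustered with Seurat 5.3.0 (2000 variable genes, of which 1981 were used after members, pathway genes and collagen chains were left out, 10 components, resolution 0.8) and named where 80% of cells scored highest for one type. No doublet caller was run, as cells were picked singly. Ratios are log2 of mean CPM + 1 over genes with at least 10 CPM in either genotype. With no mouse named, no test was run. TPM of a gene was summed over GENCODE M21 transcripts. The ratio script was tested on simulated data. All 10 members are described. Of the pathway list, *P4hb* and the 3 highest and 3 lowest ratios in pendrin cells are named, of the collagen and hypoxia lists the 2 highest genes in IMC-like cells, and for likeness 3 genes for *P4ha3* and 1 for each other member. *Col5a1* and *Col9a3* were named after their values were seen. The members and lists were chosen with earlier results of these data known.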

Additional observations from a re-analysis of the deposited data

Results flagged for a closer look

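In Slc26a4+/- mice a pair of genes moved in opposite directions in different cell types. *P4ha1* had a log2 ratio over Slc26a4+/+ of -3.05 in SC-like cells and 2.02 in RC-like cells. *Plod2* had a log2 ratio of -3.47 in IMC-like cells and 1.08 in SC-like cells. SC-like Slc26a4+/- values rest on 2 cells and RC-like ones on 6. Without the highest Slc26a4+/- cell, *P4ha1* was at -2.39 in RC-like and *Plod2* at -0.37 in SC-like cells, so that the opposite directions rest on 1 cell each. These differences between cell types were not tested.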

How the results depend on the processing

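Each alternative was held to a limit. For ratios between genotypes and isoform shares it was the spread between Slc26a4+/+ runs. For ratios between cell types it was the spread of values that each left out a run. Shares of cells were held to the binomial interval. The count of members by cell type and the pooled *P4ha3* ratio were held to a fixed fold. Some runs held few cells, such as 3 Slc26a4+/+ pendrin cells in run 2, so a limit taken from runs can be wide. A value within such a limit is therefore not shown to be stable. Of the values that answer a comparison, 90 alternatives stayed within their limit and 2 moved past it. The median log2 ratio of the members in Slc26a4+/- pendrin cells was -1.89 without the highest cell of each gene in each genotype, against -0.25, and the share of *Plod2* with the extra exon in SC-like, RC-like and MC-like Slc26a4+/+ cells was 0.435% without run 3, against 3.28%. Of the values of single genes, 688 stayed within their limit, 5 reversed and the others moved past it. *P4ha1* in Slc26a4-/- pendrin cells was at -1.31 within run 4 and -0.11 without run 2, against 2.00, and *Plod1* in Slc26a4+/- pendrin cells was at 0.041 when cells were typed by their highest marker score, against -2.69. Without the highest Slc26a4+/- cell, *P4ha1* in RC-like cells was at -2.39, against 2.02, and *Plod2* in SC-like cells at -0.37, against 1.08. The causes were not tested. *P4ha3* in Slc26a4-/- pendrin cells lay between -9.75 and -0.55, and *Serpinh1* in Slc26a4-/- IMC-like cells between 1.505 and 2.36. The comparisons limited to Slc26a4+/+ cells of like ages, to IMC-like cells low in pericyte markers, without the highest Slc26a4+/- or *P4ha3* cell, and with the unnamed *Crhbp* cluster added to pendrin cells were chosen after seeing the data; the last gave 6 members at least 2-fold higher in Slc26a4-/- pendrin cells, against 1. No paired analysis was possible because no cells of different genotypes share a replicate number. Depth limits the SC-like Slc26a4-/- cells most.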

Other observations

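The unnamed cells were in 2 clusters, one of 88 cells led by haemoglobin genes and one of 17 cells led by *Crhbp*. Of the 88 cells, 63.6% scored highest for the IMC markers, which was below the 80% needed for a name. At a clustering resolution of 1.2, 48 of the unnamed cells were IMC-like. At that resolution 0 members were at least 2-fold higher in Slc26a4+/- IMC-like cells, against 1 (*P4ha1*) as reported. Of the 80 unnamed Slc26a4+/+ cells, 4 had at least 10 counts of *P4ha3*, and 353 counts were found in all.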
